A study of Homo sapiens with 4 samples.

Results

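The enzymes of serine synthesis and of folate one-carbon metabolism, with asparagine synthetase, were followed in HGC27, an established human gastric cancer cell line. The 10 genes were PHGDH, PSAT1, PSPH, SHMT1, SHMT2, MTHFD1, MTHFD1L, MTHFD2, ALDH1L2 and ASNS, taken by name from the deposited table, and all 10 were among its 14431 genes. The control group had 2 libraries of wild-type cells, named NC in the column labels. In the 2 libraries of the siAARS1 group AARS1, the gene of cytosolic alanyl-tRNA synthetase, was knocked down with small interfering RNA. Wild-type here does not say whether control cells received a control small interfering RNA. Cells of all 4 libraries were kept in DMEM lacking glucose, with fetal bovine serum and 25 mM lactate, for 24 h per the labels. The study's text gives another duration, so the time is uncertain. The comparison asked how the knockdown changed these transcripts under lactate, and nothing here compares lactate with its absence. Nothing in the labels says whether the 2 libraries of a group came from separate cultures. The p-values thus measure the spread between these libraries, which may be technical. Each gene alone has 2 residual degrees of freedom, and limma, the main test, draws its spread towards that of genes at a similar level. Small p-values therefore rest in part on other genes.

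PHGDH, PSAT1 and PSPH act in that order to turn a glycolytic intermediate into serine. SHMT1 in the cytosol and SHMT2 in mitochondria move a carbon from serine to tetrahydrofolate and release glycine. In mitochondria MTHFD2 oxidises the carried carbon, MTHFD1L releases it as formate and ALDH1L2 burns it to CO2 while making NADPH. In the cytosol MTHFD1 catalyses the matching oxidation and ligation steps that feed purine and thymidylate synthesis. ASNS makes asparagine from aspartate and glutamine and uses no folate. ASNS and several of the serine and mitochondrial folate genes are known targets of ATF4, the transcription factor of the amino acid response.

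Libraries held 30653210 to 33522573 reads in listed genes, so 1 read was worth 0.0293 to 0.0324 CPM, the unit of the table (read counts scaled to a common library total, with no correction for gene length). AARS1 (listed as AARS) stood at 428 and 417 CPM in the controls against 292 and 298 CPM after knockdown, or 69.7% of control (log2 change -0.52, adjusted p by limma = 2.52e-11). Among markers of the labelled cell type, EPCAM, KRT18 and KRT19 were not among the listed genes, and the summed level of KRT8 and CDH1, the other 2 of the 5 epithelial markers, was 27.0 to 27.3 CPM in control and 6.14 to 7.29 CPM in siAARS1 libraries. Of the mesenchymal markers CDH2 was not listed, VIM stood at 4600 to 5131 CPM in the 4 libraries and ZEB1 went from 6.16 and 6.84 to 50.03 and 52.3 CPM. The summed fibroblast markers COL1A1, COL3A1 and PDGFRB stood at 5989 to 6170 CPM in control and 4159 to 4278 CPM in siAARS1 libraries. No endothelial marker and only 1 of 4 blood markers, CD68 at 0.486 to 1.10 CPM, was listed. The part of these markers in the results below was not tested. In bulk libraries fewer cells of a type and less RNA per cell cannot be told apart.

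On the deposited CPM 5 of the 10 enzyme genes fell (PHGDH, PSAT1, SHMT1, SHMT2 and ASNS), 2 rose (MTHFD1 and ALDH1L2) and 3 were not called (PSPH, MTHFD1L and MTHFD2). A gene was called at an adjusted p-value (limma, Benjamini-Hochberg) under 0.05 over 14199 genes tested on log2(CPM + 1), and log2 changes (siAARS1 against control) below are on that scale unless another test is named. By that rule 38.0% of all genes tested fell and 32.6% rose. The 2 groups did not overlap for 8 of the 10 enzymes, against 85.1% of all genes tested. None of the 10 was called with a change of at least 2-fold, where 12.3% of all genes were. The median log2 change was -0.06 over the 10 enzymes and -0.05 over all genes tested.

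**Figure D1:**
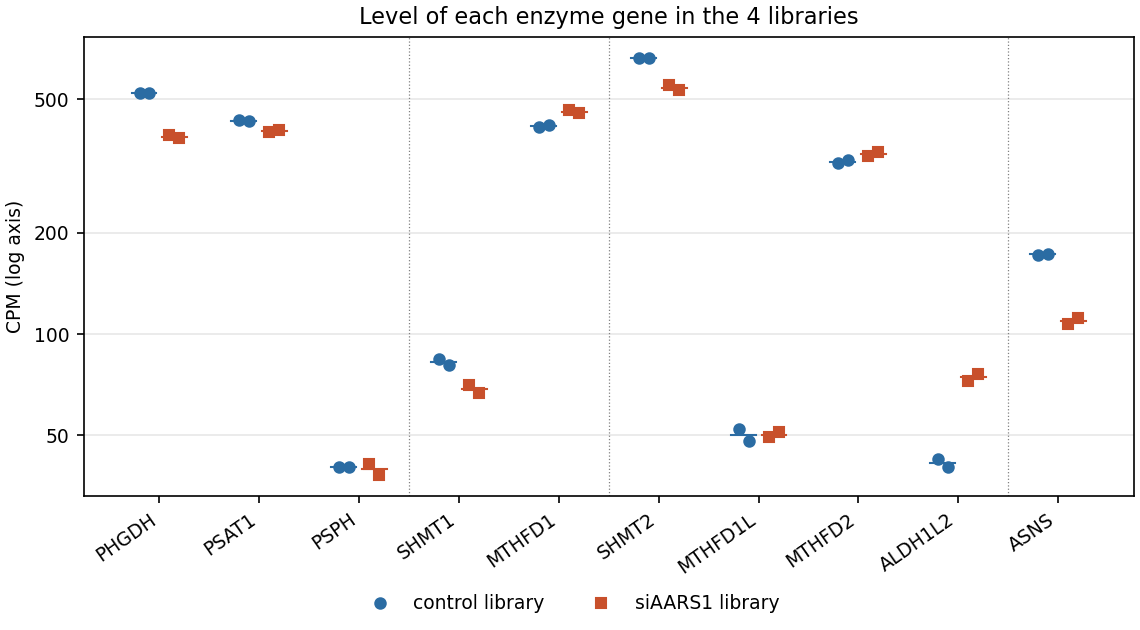
Level of each of the 10 genes in CPM on a log axis, with 1 point per library (circles for 2 control, squares for 2 siAARS1 libraries) and a line at each group mean. Dotted lines part serine synthesis, cytosolic folate, mitochondrial folate and ASNS, and the 4 libraries of ASNS run from 107 to 174 CPM with both siAARS1 libraries below both controls.

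Levels of different genes were compared as CPM per kb of 1 chosen GENCODE transcript, since longer transcripts give more reads. In control libraries SHMT2 was the highest at 261 ± 0.851 CPM per kb (SD, n = 2). PHGDH (202 ± 0.302) and PSAT1 (197 ± 1.46) followed, and then MTHFD1 (133 ± 1.09). ASNS (73.2 ± 0.621) and MTHFD2 (73.1 ± 1.16) came next, and their libraries overlapped. SHMT1 stood at 33.6 ± 1.05, PSPH at 18.5 ± 0.00617, MTHFD1L at 13.9 ± 0.775 and ALDH1L2 at 5.49 ± 0.207 CPM per kb. In siAARS1 libraries PSAT1 (184 ± 1.62) stood above PHGDH (150 ± 2.56), and MTHFD2 (77.2 ± 1.41) above ASNS (46.5 ± 1.53). The other 6 genes kept their place in the order. Apart from ASNS and MTHFD2 in control, no neighbours in either order overlapped between libraries, but the order also depends on the transcript chosen for the length.

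ASNS (ENSG00000070669, chromosome 7, 97852118 to 97872542, minus strand, GRCh38) fell furthest of the 10 on the deposited CPM, while after the GC and length correction MTHFD2 (-0.67) was below ASNS (-0.63). It stood at 172 and 174 CPM in the controls against 107 and 112 CPM after knockdown, counted from 5848, 5507, 3303 and 3725 reads. Both siAARS1 libraries lay below both controls. The mean was 63.5% of control, a log2 change of -0.65 (standard error 0.0414, 95% interval -0.74 to -0.57, adjusted p by limma = 6.45e-12). On the recovered reads edgeR gave -0.62 (adjusted p = 3.18e-11). The fall remained called under the other ways of processing, between -0.60 (DESeq2) and -1.15 (correction for the coding sequence and 3' UTR). Within each library ASNS stood at 0.396 and 0.405 times the CPM of PSAT1 in control and at 0.267 and 0.277 times in siAARS1. Such a ratio does not depend on how libraries are scaled, but it is not corrected for transcript composition. After the GC and length correction ASNS was at -0.63 and PSAT1 at -0.47. The 4 pseudogenes named after ASNS in GENCODE were not among the listed genes, so reads shared with them cannot be judged.

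The ASNS promoter is known for an ATF4 site, and the ATF4 composite motif TGATGNAA (N for any base) was therefore searched on both strands of RefSeq windows from 250 bases before to 50 after each annotated start (GRCh38.p14). Windows were found for 7 of the 10 enzymes. The motif was in windows of 2 of them, ASNS (1 of 2 windows) and MTHFD1L (3 of 4 windows), and in 3.62% of all 35116 windows, a share of windows and not of genes. The 3 MTHFD1L windows overlap and hold 1 and the same site, which lies after the start in 1 of them. The 2 windows shown hold the same motif upstream of ASNS, which fell, and of MTHFD1L, which was not called on the deposited CPM. MTHFD1L was called lower after median scaling (-0.22) and higher after the GC and length correction (0.18). Whether the motif bears on these changes was not tested. Capitals mark the match, 68 bases before the ASNS start (chr7:97872359-97872658, minus strand) and 90 bases before an MTHFD1L start (chr6:150866197-150866496, plus strand).
ASNS: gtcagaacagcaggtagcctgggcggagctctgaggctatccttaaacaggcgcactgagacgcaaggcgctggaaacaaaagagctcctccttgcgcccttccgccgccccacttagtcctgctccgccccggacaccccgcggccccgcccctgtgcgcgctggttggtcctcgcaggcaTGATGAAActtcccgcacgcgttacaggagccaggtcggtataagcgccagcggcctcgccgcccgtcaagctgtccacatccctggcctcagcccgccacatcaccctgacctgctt
MTHFD1L: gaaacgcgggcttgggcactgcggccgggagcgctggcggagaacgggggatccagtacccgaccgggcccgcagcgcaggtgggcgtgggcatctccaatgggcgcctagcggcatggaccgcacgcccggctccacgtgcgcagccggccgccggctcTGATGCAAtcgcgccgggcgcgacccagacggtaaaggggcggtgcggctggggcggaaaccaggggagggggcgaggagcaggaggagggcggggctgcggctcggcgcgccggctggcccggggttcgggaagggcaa
The windows of PHGDH, PSAT1, SHMT1, MTHFD1 and MTHFD2 did not hold these letters. The match is a description of sequence only. Binding was not measured in these libraries.

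PHGDH, the enzyme that commits phosphoglycerate to serine, fell the most of the serine synthesis genes on the deposited CPM, while PSAT1 was the lower of both after each correction for transcript properties. PHGDH (ENSG00000092621, chromosome 1, 119648411 to 119744226, plus strand) stood at 522 and 521 CPM in the controls against 391 and 382 CPM after knockdown. The groups did not overlap and the mean was 74.1% of control, a log2 change of -0.43 (standard error 0.0347, interval -0.50 to -0.36, adjusted p by limma = 3.55e-10). The fall kept its call but shrank to -0.12 after correction for transcript GC content and length, and to -0.11 after the correction for coding sequence and 3' UTR. PSAT1, the aminotransferase of the next step (ENSG00000135069, chromosome 9, 78297143 to 78330093, plus strand), stood at 434 and 429 CPM in the controls against 400.0 and 405 CPM after knockdown. Its log2 change of -0.10 (standard error 0.0347, adjusted p by limma = 0.0144) was small, and edgeR on the recovered reads did not call it (-0.06, adjusted p = 0.139). It was also not called by DESeq2 (-0.05), after quantile normalization (-0.06), without control replicate 1 (-0.09) or without control replicate 2 (-0.11), while after the GC and length correction it fell by 0.47 and after the correction for coding sequence and 3' UTR by 0.22. PSPH, the phosphatase that releases serine (ENSG00000146733, chromosome 7, 56011051 to 56051604, minus strand), stood at 40.33 and 40.34 CPM in the controls against 41.2 and 38.2 CPM after knockdown. The siAARS1 libraries lay on either side of the controls, with a log2 change of -0.02 and an interval of -0.15 to 0.10 (adjusted p by limma = 0.742). PSPH was called lower after median scaling (-0.24) and quantile normalization (-0.19), and higher after the GC and length correction (0.13) and the correction for coding sequence and 3' UTR (0.12). Relative to PSAT1 in the same library, PHGDH moved from 1.21 and 1.22 times its CPM in control to 0.979 and 0.944 times in siAARS1. This ratio is not corrected for transcript composition, and after the GC and length correction PSAT1 (-0.47) was lower than PHGDH (-0.12).

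Both serine hydroxymethyltransferases, cytosolic SHMT1 and mitochondrial SHMT2, fell. SHMT2 (ENSG00000182199, chromosome 12, 57229327 to 57234935, plus strand) stood at 664 and 661 CPM in the controls against 549 and 532 CPM after knockdown, a log2 change of -0.29 (standard error 0.0345, interval -0.37 to -0.22, adjusted p by limma = 1.44e-07). SHMT1 (ENSG00000176974, chromosome 17, 18327860 to 18363563, minus strand) stood at 84.5 and 80.8 CPM in the controls against 70.5 and 66.8 CPM after knockdown, a log2 change of -0.27 (standard error 0.0488, interval -0.37 to -0.16, adjusted p by limma = 5.67e-05). In both genes the siAARS1 libraries lay below both controls. The SHMT2 to SHMT1 ratio of CPM was 7.85 and 8.17 in control and 7.78 and 7.96 in siAARS1 libraries, so the groups overlapped in this ratio. Neither fall was called after the GC and length correction (-0.03 for SHMT2 and -0.07 for SHMT1), and SHMT2 was at 0.03 after the correction for coding sequence and 3' UTR. In the table's extra symbol column the SHMT1 row carried the name of MIR6778, a microRNA gene inside SHMT1 on the same strand, and it was identified here by the symbol paired with its Ensembl identifier. SHMT1 also overlaps SMCR8 and SHMT2 overlaps NDUFA4L2 on the opposite strand. The use of strand in counting is not given in the sources used here, so reads of such pairs cannot be told apart.

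MTHFD1, MTHFD1L and MTHFD2, which carry the folate-bound carbon onward, had log2 changes between 0.00 and 0.14 on the deposited CPM, and only MTHFD1 was called. MTHFD1, the cytosolic trifunctional enzyme (ENSG00000100714, chromosome 14, 64388031 to 64463457, plus strand), stood at 414 and 419 CPM in the controls against 463 and 454 CPM after knockdown. It rose to 110% of control, a log2 change of 0.14 (standard error 0.0347, interval 0.07 to 0.21, adjusted p by limma = 0.00127), but it was not called after median scaling, where it stood at -0.081, or after the correction for coding sequence and 3' UTR (0.04). MTHFD1 overlaps ZBTB25 and AL122035.2 on the opposite strand. MTHFD1L, the mitochondrial formate-releasing enzyme (ENSG00000120254, chromosome 6, 150865549 to 151101887, plus strand), stood at 52.1 and 48.2 CPM in the controls against 49.4 and 51.2 CPM after knockdown. Both siAARS1 libraries lay between the controls, and the log2 change was 0.00 with an interval of -0.11 to 0.12 (adjusted p by limma = 0.945). MTHFD1L was called lower after median scaling (-0.22, adjusted p by limma = 0.00137) and higher after the GC and length correction (0.18, adjusted p by limma = 0.00533). MTHFD2, the mitochondrial dehydrogenase (ENSG00000065911, chromosome 2, 74198562 to 74217565, plus strand), stood at 322 and 329 CPM in the controls against 340 and 349 CPM after knockdown. Both siAARS1 libraries lay above both controls, yet the log2 change of 0.08 (standard error 0.0359, interval 0.00 to 0.15) missed the threshold (adjusted p by limma = 0.0558). It was called higher by edgeR (0.12, adjusted p = 0.00922), DESeq2 (0.13), quantile normalization (0.10) and without siAARS1 replicate 1 (0.10), and called lower after median scaling (-0.14) and after both corrections for transcript properties (-0.67 and -0.11). The MTHFD1L to MTHFD1 ratio of CPM was 0.126 and 0.115 in control and 0.107 and 0.113 in siAARS1 libraries, which lay below both controls. The 7 pseudogenes named after MTHFD2, like those named after PSAT1, PSPH, SHMT1 and MTHFD1, were not among the listed genes.

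ALDH1L2, the mitochondrial enzyme that ends the folate-bound carbon as CO2 (ENSG00000136010, chromosome 12, 105019784 to 105084577, minus strand), rose furthest of the 10 on the deposited CPM. It stood at 42.5 and 40.3 CPM in the controls against 72.6 and 76.3 CPM after knockdown, counted from 1450, 1279, 2241 and 2535 reads. Both siAARS1 libraries lay far above both controls, and the mean was 180% of control. The log2 change was 0.83 (standard error 0.0532, interval 0.72 to 0.94, adjusted p by limma = 7.27e-12), and edgeR gave 0.88 (adjusted p = 3.74e-12). The rise was not called after the GC and length correction, where it stood at -0.10 (adjusted p by limma = 0.0847), or after the correction for coding sequence and 3' UTR, at 0.06 (adjusted p by limma = 0.232). Relative to MTHFD1L in the same library, ALDH1L2 went from 0.816 and 0.837 times its CPM to 1.47 and 1.49 times. This ratio is not corrected for transcript composition, and after the GC and length correction ALDH1L2 (-0.10) was below MTHFD1L (0.18). ALDH1L2 overlaps C12orf45 on the opposite strand.

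Fold changes followed transcript composition across all genes, which is why the values after these corrections are given. The rank correlation across 13819 genes, which are not independent replicates, was -0.65 between log2 change and GC content and 0.30 between log2 change and length. The median log2 change went from 0.77 in the lowest GC quintile to -0.30 in the highest. MTHFD2 (41.4% GC) lay in the lowest quintile, near its upper limit of 41.5%, and below that quintile's median. ALDH1L2 (42.1%) and PSAT1 (42.3%) lay in the second, with a median of 0.21. ASNS, MTHFD1, PSPH, SHMT1 and MTHFD1L lay in the third (47.0% to 51.9%), with a median of -0.12, and SHMT2 (55.2%) and PHGDH (58.3%) in the fourth, with a median of -0.24. The ALDH1L2 transcript, at 7547 bases, was the longest of the 10, where the others had 2178 to 4456 bases.

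**Figure D2:**
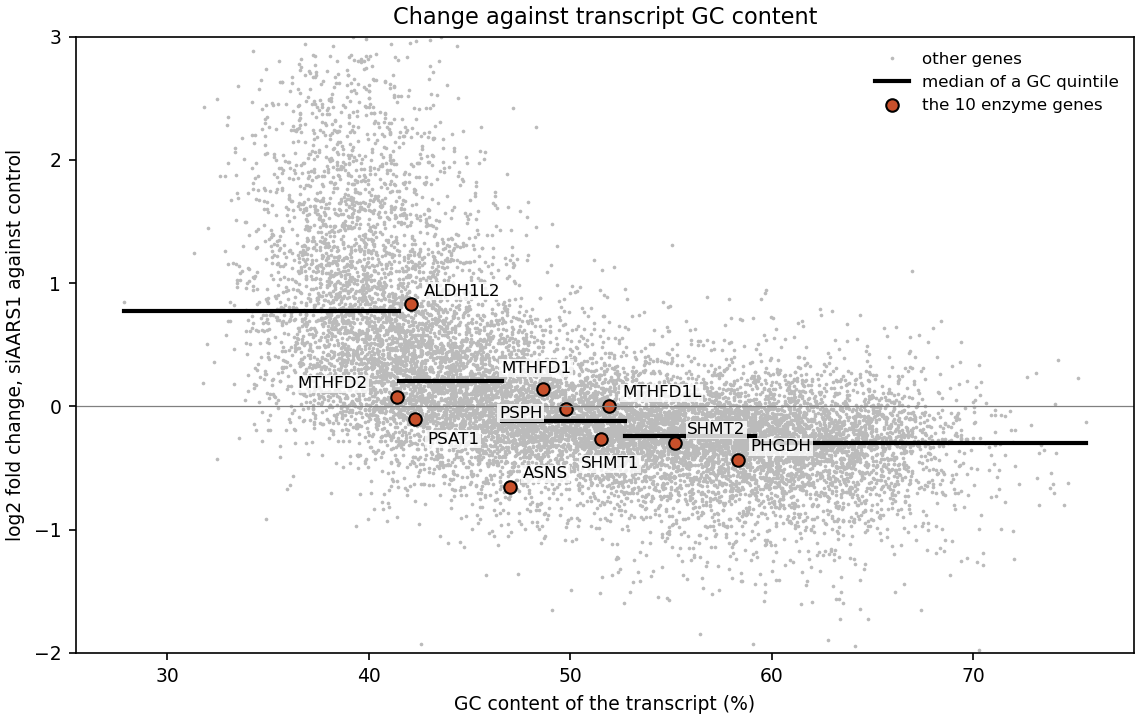
Log2 fold change (siAARS1 against control) against the GC content of the transcript in percent, with 1 grey point per gene, the 10 enzyme genes as large points and a bar at the median of each GC quintile over its range. ALDH1L2 (0.83), MTHFD1, MTHFD1L and PSPH stand above the median of their own quintiles. MTHFD2, PSAT1, ASNS, SHMT1, SHMT2 and PHGDH stand below it, and 14 of the 13819 genes lie outside the drawn range.

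After the GC and length correction 3 enzymes were called higher (MTHFD1, PSPH and MTHFD1L) and 4 lower (ASNS, MTHFD2, PSAT1 and PHGDH), against 32.7% and 33.3% of the genes in that fit. After the correction for coding sequence and 3' UTR 1 was called higher (PSPH) and 4 lower (the same 4), against 34.2% and 31.6%. ASNS, PHGDH and PSAT1 were called lower on the deposited CPM and after each correction. The corrections also take out any true change that follows GC content or length, and they rest on 1 annotated transcript a gene. Median scaling moved the median of all genes to -0.27 and gave 1 enzyme higher (ALDH1L2) and 8 lower. In that fit 3306 of all 14199 genes tested were called higher and 8173 lower. The share of higher genes among all calls was 28.8%, against 46.2% on the deposited CPM. Since median scaling shifts every gene by the same amount, values relative to the median of all genes are the same in both by construction. They were -0.60 for ASNS, -0.38 for PHGDH, 0.19 for MTHFD1, 0.13 for MTHFD2 and 0.88 for ALDH1L2.

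**Figure D3:**
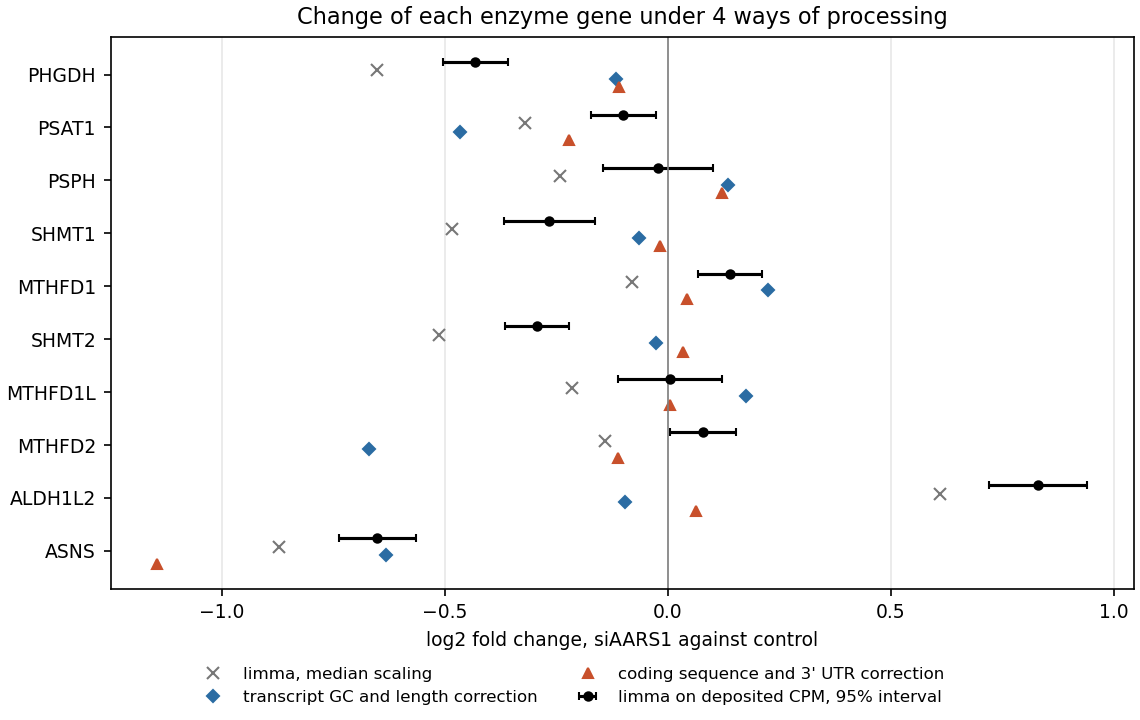
Log2 fold change of each enzyme gene under 4 ways of processing: limma on the deposited CPM with its 95% interval (black circles), after median scaling (crosses), and after correction for transcript GC content and length (diamonds) or for the coding sequence and 3' UTR (triangles). All 4 values of ASNS (-1.15 to -0.63) and of PHGDH (-0.65 to -0.11) lie below 0, while those of ALDH1L2 run from -0.10 to 0.83.

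Other genes of the surrounding pathways were taken from 6 lists with 81 genes, of which 73 were in the table. Of these, 28 were called higher and 31 lower, and the median log2 change was -0.04. Of all genes tested 32.6% rose and 38.0% fell. The shares were 32.7% and 33.3% after the GC and length correction, and 34.2% and 31.6% after the correction for coding sequence and 3' UTR. The counts below are to be read beside these shares, and no list was tested as a set. Among other folate enzymes and carriers 6 of 14 rose and 5 fell. FOLR1, a folate receptor, fell from 29.6 ± 0.0615 to 19.7 ± 1.40 CPM (SD, n = 2). FPGS, which adds the glutamate tail that keeps folate in cells, fell from 68.5 ± 2.53 to 48.8 ± 1.46 CPM. After the GC and length correction FOLR1 was at -0.27 and FPGS at -0.10, both still called, with adjusted p-values by limma of 0.0015 and 0.0499, and the list had 4 higher and 8 lower.

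In the glycine cleavage and serine transport list 2 of 11 rose and 5 fell, against 32.6% and 38.0% of all genes tested. SFXN3, a mitochondrial serine carrier, fell from 63.5 ± 0.332 to 28.1 ± 0.720 CPM (log2 change -1.15, adjusted p by limma = 6.57e-14, and -0.89 with GC and length corrected). DLD, a subunit of the glycine cleavage system and of pyruvate dehydrogenase, rose from 46.0 ± 0.581 to 112 ± 7.24 CPM, which was 1.27 before and 0.37 after that correction. SRR, serine racemase, fell from 12.8 ± 1.51 to 7.96 ± 1.296 CPM. After the GC and length correction 3 of the list were higher and 6 lower. GLDC and SDS were not among the listed genes.

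Of the methionine cycle and transsulfuration genes 5 of 9 rose and 3 fell, against 32.6% and 38.0% of all genes tested. MTR, the methionine synthase that takes the methyl group of folate, rose from 59.2 ± 0.1004 to 129 ± 4.27 CPM (log2 change 1.11). Its reactivating enzyme MTRR rose from 24.8 ± 0.639 to 40.5 ± 2.59 CPM (0.69), and MAT2A, which makes S-adenosylmethionine, from 551 ± 2.09 to 799 ± 16.1 CPM (0.54). After the GC and length correction these 3 were called higher, at 0.38, 0.17 and 0.42, but the list as a whole had 4 higher and 5 lower, and its median went from 0.30 to -0.10. MTAP and MAT2B, which were called higher on the deposited CPM (0.30 and 0.41), were called lower after that correction (-0.94 and -0.10), and were picked after their values were seen. Of the purine synthesis genes 7 of 13 rose and 3 fell. PPAT, the first committed enzyme, rose from 39.9 ± 1.43 to 99.8 ± 2.61 CPM (1.303), ADSS from 39.1 ± 1.06 to 60.3 ± 0.0742 CPM (0.61) and PAICS from 399 ± 12.7 to 584 ± 1.37 CPM (0.55). After the same correction PPAT and ADSS were at 0.30 and 0.13 and PAICS was called lower at -0.24, with 6 of the list higher and 5 lower. After the correction for coding sequence and 3' UTR PPAT was at 0.32, while ADSS (-0.07) and PAICS (0.01) were not called.

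Among aspartate, glutamate and proline enzymes 12 of 16 fell and 2 rose, against 38.0% and 32.6% of all genes tested. The median log2 change of the list was -0.26. ASL, argininosuccinate lyase, fell from 76.3 ± 0.581 to 54.3 ± 2.89 CPM (-0.48, and -0.15 and -0.12 after the 2 corrections). ASNSD1, which holds an asparagine synthetase domain, rose from 22.3 ± 2.25 to 58.6 ± 4.84 CPM, a log2 change of 1.36 that was 0.71 after the GC and length correction and 0.19 after the correction for coding sequence and 3' UTR. After the GC and length correction 6 of the list were called lower and 5 higher. Among 10 regulators ATF4 fell from 512 ± 18.6 to 437 ± 4.33 CPM, a log2 change of -0.23 (adjusted p by limma = 1.10e-05). After the GC and length correction ATF4 was instead called higher, at 0.08 (adjusted p by limma = 0.0252). Its relative ATF5 rose from 11.1 ± 0.916 to 19.1 ± 1.48 CPM (0.73, and 1.05 after the correction), NFE2L2, the NRF2 gene, from 35.6 ± 2.69 to 88.4 ± 1.22 CPM (1.29 and 1.17), and EIF2AK3, the PERK kinase gene, from 15.1 ± 0.0148 to 24.4 ± 1.13 CPM (0.66 and 0.31). After the correction for coding sequence and 3' UTR ATF4 was not called (-0.02), EIF2AK3 was called lower (-0.16), and ATF5 and NFE2L2 were called higher at 1.12 and 0.56. Of the 10 regulators 6 rose and 3 fell on the deposited CPM, 6 were higher and 2 lower after the GC and length correction, and 3 were higher and 3 lower after the other.

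**Figure D4:**
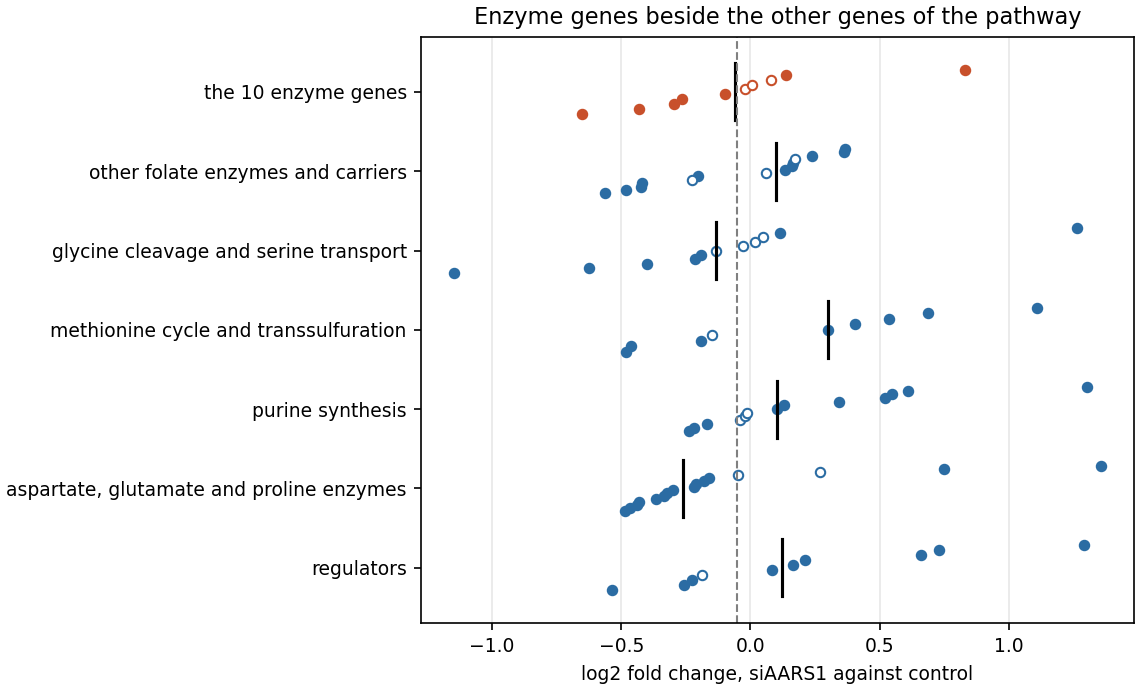
Log2 fold change (siAARS1 against control) of the 10 enzyme genes and of the 73 listed genes of the 6 other lists, with filled points for genes called at an adjusted p-value under 0.05 and open points for the rest. Black bars mark the median of each row, from -0.26 for the aspartate, glutamate and proline enzymes to 0.30 for the methionine cycle, and the dashed line marks the median of all genes tested (-0.05).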

How the data were processed

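RNA-seq libraries, 2 control and 2 siAARS1, were compared, grouped by the sample titles. The authors deposited 1 table of CPM (read counts scaled to a common library total). The submitters' processing notes name RSEM 1.3.3 and hg38, without role or order. Annotation, strand use, filters and scaling are not given in the sources used here. Each deposited CPM divided by the worth of 1 read came out whole (within 0.1 read, 100% of values), which gave back reads. Intervals cover only the spread between libraries, which limma estimated with information from other genes.

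The main test was limma 3.58.1 (R 4.3.3, eBayes with a trend) on log2(CPM + 1) for 14199 genes whose mean reached 1 CPM in either group, with Benjamini-Hochberg adjustment over all of them. This scale understates changes of low genes. Alternatives were a pseudocount of 0.1, no filter, median scaling, quantile normalization, the replicate number as a block, each library left out, a threshold of 0.01, edgeR 4.0.16 (TMM) and DESeq2 1.42.0 on recovered reads, and 2 corrections. Each correction took out of every library a smooth trend (mgcv 1.9.3) in its deviation from the gene mean, which also centres libraries. One used GC content and length of the transcript (13819 genes), the other those of the coding sequence and 3' UTR (12124 genes with a 3' UTR of at least 30 bases). Transcripts were the basic, protein-coding, best by APPRIS and longest in GENCODE v29 (GRCh38), found for 97.2% of genes. The limma, edgeR and DESeq2 fits and the GC and length correction were run on simulated data, and the other alternatives were not. The chi-square statistic between replicates was 3.63 per gene in control and 3.62 in siAARS1. With 2 libraries per group it cannot show which library deviates, and all 4 libraries were kept. Members and gene lists were chosen with earlier results of these data known. Besides the 10 enzymes and AARS1, the text names ATF4 and up to 3 called genes per list with the largest change and at least 5 CPM, except some that are not reported here. Within-library ratios other than SHMT2 to SHMT1 and MTHFD1L to MTHFD1 were picked after their values were seen. No ratio was corrected for GC content or length.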

Additional observations from a re-analysis of the deposited data

How the results depend on the processing

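ASNS, PHGDH and AARS1 were lower and called under each of the 14 alternatives fitted to single genes, with ranges of -1.15 to -0.60, -0.65 to -0.11 and -0.74 to -0.30. Leaving out each library in turn gave -0.68 to -0.62 for ASNS, -0.45 to -0.41 for PHGDH and -0.54 to -0.50 for AARS1. For the values that follow, the cause was not tested. Median scaling moved the calls to 1 enzyme higher and 8 lower, beside 3306 higher and 8173 lower of all 14199 genes tested. It put MTHFD1 at -0.081 (not called), MTHFD1L at -0.22 and MTHFD2 at -0.14 (both called lower), all with the sign reversed. The coding sequence and 3' UTR correction gave 1 enzyme higher and 1 at least 2-fold changed (ASNS). It also reversed the sign of SHMT2 (0.034, not called), MTHFD2 (-0.11, called) and PSPH (0.12, called). The GC content and length correction reversed the sign of ALDH1L2 (-0.10, not called), MTHFD2 (-0.67, called) and PSPH (0.13, called), with the same values when the replicate block was added. PSPH also changed sign in edgeR (0.0145), in DESeq2 (0.029) and without siAARS1 replicate 2 (range without single libraries -0.076 to 0.031), and MTHFD1L under quantile normalization (-0.13), without control replicate 2 and without siAARS1 replicate 2 (range without single libraries -0.051 to 0.060). Without single libraries, 6 to 8 enzymes were called, 2 to 3 higher and 4 to 5 lower. The number of all genes called, 10032 on the deposited CPM, stayed within 1.5 times under every alternative. The labels do not say that replicate numbers mark pairs, and the deviations of libraries sharing a number had a correlation of 0.118 over genes. Adding the replicate block gave 10389 called genes, with 2 enzymes higher and 5 lower.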
